A study of Homo sapiens with 30 samples.

Results

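The 9 genes described here are effectors of the interferon-induced antiviral state: BST2, MX1, MX2, RSAD2, CMPK2, EIF2AK2, ISG20, ADAR and ZC3HAV1. They were taken by symbol from the 61471 genes listed for each of 2 human glioblastoma lines, U87-MG and U251-MG (U87 and U251 below), and all 9 were found in both lines. Each line was wild type and was sampled by bulk RNA-seq in 5 conditions. Untreated cells received no cytokine and are labelled as collected on day 3, while the study's methods place their collection on day 0, so the time between them and the treated groups is not settled. D3, D14 and D28 cells were kept in interferon-γ (IFN-γ) for 3, 14 and 28 days. D28WO cells had IFN-γ removed after day 14 and were collected on day 28. The labels give the dose as 1 μg/mL, while the study's methods give a lower concentration, so the dose is not settled. The study describes its replicates as biologically independent, and neither line was re-authenticated by the study. Levels are TPM values, transcript abundances scaled for gene length and library size, so genes can be ranked within a library.

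Interferons make cells resistant to virus by switching on effector proteins that block different steps of infection. BST2 (tetherin) holds budding enveloped particles on the cell surface. MX1 and MX2 are dynamin-like GTPases that act on incoming viral nucleoproteins or capsids. RSAD2 (viperin) is a radical SAM enzyme that turns CTP into a chain-terminating nucleotide, and CMPK2 is a mitochondrial nucleotide kinase that lies beside it in the genome. EIF2AK2 (PKR) is activated by double-stranded RNA and stops translation, whereas ADAR edits adenosine to inosine in double-stranded RNA and restrains that response. ISG20 is an RNA exonuclease, and ZC3HAV1 (ZAP) binds CpG-rich RNA and recruits decay factors. Type I interferons act mainly through the interferon-stimulated response element (ISRE), and IFN-γ mainly through the gamma-activated site (GAS).

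The promoter sequences are shown first because they show which members carry the letters of either element near an annotated start. RefSeq windows on GRCh38.p14, running from 250 bases before to 50 bases after each annotated start, matched 8 members with 15 windows; MX2 had no entry. The ISRE core was searched as GAAA, any 2 bases and GAAA, and the GAS core as TTCNNNGAA, each on both strands. An ISRE match lay in 6 of the 15 windows, from 5 members, and a GAS match in 3 of 15, from 3 members. Of all 35116 windows, 3.57% held the ISRE letters and 7.66% the GAS letters. Matches are letters in a window and not evidence of binding. BST2 is printed over the 250 bases before its start (chr19:17405631-17405880, minus strand) because 2 overlapping ISRE matches ran from 130 to 115 bases before the start, joined to a GAS match at 136 to 128 bases, with another GAS match at 58 to 50 bases. ISG20 (chr15:88638766-88639015, plus strand) held an ISRE match with the same 10 letters at 69 to 60 bases. RSAD2 (chr2:6877527-6877776, plus strand) held its ISRE match on the opposite strand, at 145 to 136 bases before the start. Capitals mark the matches.
BST2: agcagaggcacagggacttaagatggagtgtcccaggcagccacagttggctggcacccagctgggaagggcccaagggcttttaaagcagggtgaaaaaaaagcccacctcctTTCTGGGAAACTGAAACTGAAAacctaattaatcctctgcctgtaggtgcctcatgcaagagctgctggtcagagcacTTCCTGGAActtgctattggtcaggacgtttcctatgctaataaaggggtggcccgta
ISG20: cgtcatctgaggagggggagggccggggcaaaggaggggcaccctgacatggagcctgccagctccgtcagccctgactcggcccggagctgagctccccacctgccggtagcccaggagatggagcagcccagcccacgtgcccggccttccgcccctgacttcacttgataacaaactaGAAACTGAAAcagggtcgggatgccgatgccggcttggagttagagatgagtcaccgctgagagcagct
RSAD2: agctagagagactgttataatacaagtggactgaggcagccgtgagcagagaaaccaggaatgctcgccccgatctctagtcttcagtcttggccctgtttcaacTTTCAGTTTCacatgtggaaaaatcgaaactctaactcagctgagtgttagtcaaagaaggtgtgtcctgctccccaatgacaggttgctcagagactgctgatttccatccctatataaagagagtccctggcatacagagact

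Short stretches of 30 bases show matches of 3 further members. MX1 (chr21:41420559-41420588, plus strand) carried an ISRE match at bases 12 to 21 from its start, and EIF2AK2 (chr2:37156967-37156996, minus strand) carried one that spans the start. ZC3HAV1 (chr7:139109805-139109834, minus strand) had no ISRE letters, and its GAS match ran from 104 to 96 bases before the start. The start of MX1 farthest downstream had an ISRE match on the opposite strand that overlapped with a GAS match. The 3 ADAR windows held neither motif.
MX1: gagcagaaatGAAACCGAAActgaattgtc
EIF2AK2: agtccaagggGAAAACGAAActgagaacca
ZC3HAV1: ggtctgctctTTCCGGGAAtgggtggggtg

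RSAD2 and CMPK2 lie on opposite strands, and their annotated bodies overlap at the ends where each begins (RSAD2 chr2:6865557-6898239, CMPK2 chr2:6840570-6866635). The 3 CMPK2 windows held neither motif. After the sequences had been seen, a shorter form with a spacer of 1 base, GAAANGAAA, was also searched on both strands. It occurred 4 times before the upstream RSAD2 start, and the 2 copies nearest to that start also fell in a CMPK2 window. MX1 was the only other member with a match, and 3.12% of all windows held these letters. The 2 copies farthest from the RSAD2 start (chr2:6865723-6865752 and chr2:6865757-6865786, plus strand) are printed as examples.
RSAD2 copy a: ccccgcctcgGAAACGAAAcctggcgggag
RSAD2 copy b: gcgccggcggGAAACGAAAcccggagggag

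**Figure D1:**
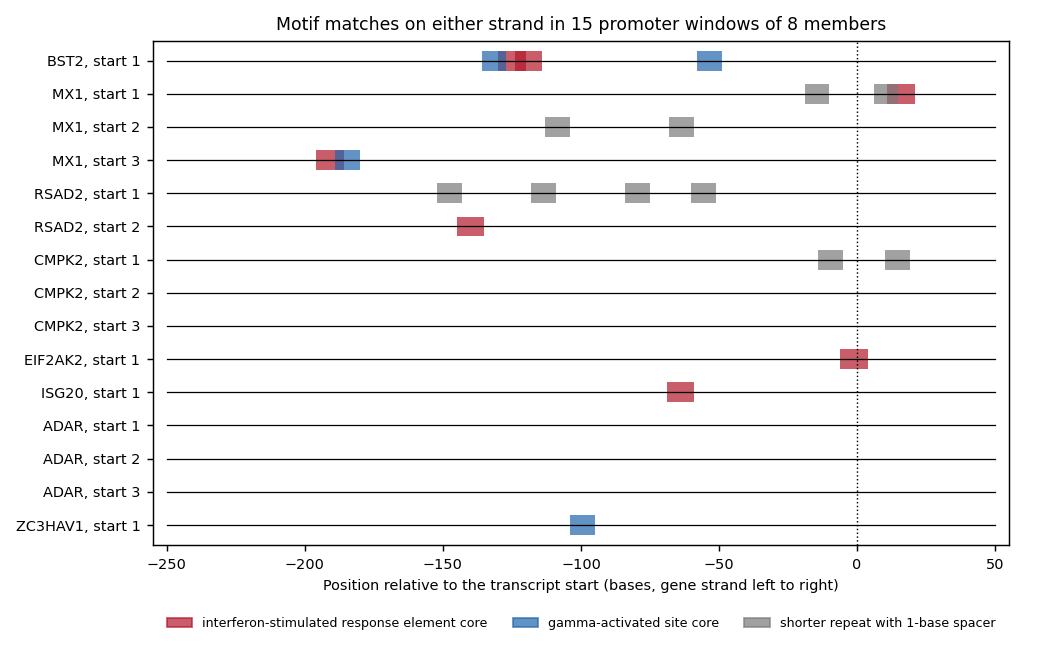
Motif matches in the 15 promoter windows of 8 members, with the position relative to the annotated start in bases on the horizontal axis (0 at the start) and 1 row for each start. Red blocks are ISRE letters, blue blocks GAS letters and grey blocks the shorter repeat; BST2 has red and blue side by side, and the ADAR rows are empty.

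There were 13 U87 and 15 U251 libraries. A further 2 U87 columns shared a name and were not used, which left 2 libraries in each of U87 D3 and U87 D14 and 3 in every other group. Depth is unknown from TPM values. Untreated U87 libraries listed 24223 to 25459 genes above 0 and every treated U87 library at least 26096, whereas in U251 the treated libraries (at least 25633) overlapped with Untreated (24450 to 27187), and the part of this in the results was not tested. Libraries of a group correlated at 0.960 to 0.974 in U87 and 0.959 to 0.974 in U251 across genes. Glioma markers were present, with VIM at 984 to 1459 TPM in U87 and 599 to 1161 TPM in U251. SOX2 stayed between 0 and 0.411 TPM and GFAP between 2.33 and 19.1 TPM in U87, against 105 to 176 TPM and 223 to 1309 TPM in U251, so SOX2 was near absent from U87 and GFAP low. OLIG2 (3.51 to 32.0 TPM in U87, 0 to 1.33 TPM in U251) and CHI3L1 (119 to 257 TPM and 15.9 to 99.5 TPM) had the opposite order. Summed over 10 glioma markers, U251 went from 4048 to 4132 TPM in Untreated to 1635 to 1958 TPM at D3 and 1817 to 2051 TPM at D28. By adjusted p, 8 of 9 tested were lower at D28 (14.7% of genes) and 1 was higher (25.9% of genes). The same sum in U87 was 2144 to 2355 TPM in Untreated and 1791 to 1954 TPM at D28WO, though single markers went both ways by adjusted p. With a log2 fold change over 1 in size as well, 2 of 9 tested were higher (12.8% of genes) and 0 lower (2.12%). In U251 the 3 endothelial markers summed to 26.6 to 38.4 TPM in Untreated and 2.45 to 3.46 TPM at D3. By both criteria 1 of 3 was lower there (4.55% of genes). CDH5 reached 31.0 TPM in U251 libraries, against at most 2.38 TPM for PECAM1 and 5.63 TPM for VWF. Summed over 8 immune markers, the level was 18.0 to 19.1 TPM in Untreated U87, 39.7 to 57.6 TPM at D3, 24.2 to 26.0 TPM at D14, 29.1 to 46.0 TPM at D28 and 41.4 to 52.6 TPM at D28WO, most of it ITGAX, while AIF1 was at 0 in every U87 library. In U251 the same sum was 1.30 to 2.80 TPM in Untreated cells, 5.38 to 8.03 TPM at D3 and 4.08 to 6.29 TPM at D14. It was 9.37 to 14.2 TPM at D28 and 2.68 to 5.49 TPM at D28WO. The part of all these markers in the results was not tested. The 2 U87 libraries labelled D14 stood close to Untreated for IRF1, a transcription factor induced by IFN-γ, which was at 110 and 134 TPM against 130 to 136 TPM in Untreated and 443 to 539 TPM at D28. The U87 libraries labelled D28WO, from which IFN-γ had been withdrawn, stood at 457 to 545 TPM, close to D28. Labels were taken as given, and every U87 result that involves D14 or D28WO rests on them. The tables of the lines were normalized separately, so values of U87 and U251 stand side by side without a test between them.

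The main question was which effectors changed with IFN-γ and whether they came back down once it was withdrawn. A gene was called when limma gave an adjusted p under 0.05 and a log2 fold change over 1 in size on log2(TPM + 1), fitted over 22918 genes in U87 and 23667 in U251. In U87, 6 of 9 members were higher at D3 than in Untreated, where 5.85% of all genes were called higher. At D14 it was 2 of 9, against 1.89% of genes. At D28 it was again 6 of 9 (6.77% of genes), and at D28WO 6 of 9 (12.8% of genes). The 6 genes were BST2, MX1, MX2, RSAD2, CMPK2 and ISG20 each time, and BST2 and MX2 were the 2 called at D14. In U251 the count was 7 of 9 members at D3 (9.72% of genes) and 5 at D14 (4.72%). It was 7 at D28 (11.9%) and 8 after withdrawal (4.07%). No member was called lower than Untreated, where 0.384%, 0.209%, 0.611% and 2.12% of U87 genes and 4.55%, 1.04%, 3.35% and 3.38% of U251 genes were, in the order of the conditions. Both U87 calls at D14 were lost when the fit held those 2 groups alone (adjusted p = 0.121 for BST2 and 0.134 for MX2, limma). All 4 comparisons of a line share its 3 Untreated libraries, so their counts are not independent of each other.

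Among the 9 members in U87, the median log2 change from D3 through D28WO was 2.17, 0.49, 2.56 and 2.20, where the median of all tested genes was 0.20, 0.15, 0.19 and 0.25. In U251 the members had medians of 3.06, 2.98, 3.13 and 3.59, and all tested genes 0.13, 0.10, 0.16 and 0.02. The U87 value of 0.49 at D14 became 0.87 with a pseudocount of 0.1, 0.19 under quantile normalization and 0.28 without D14 replicate 3. When the fold threshold was dropped and the adjusted p kept, 9 of 9 members were higher at D3, D28 and D28WO in both lines, where 12.4%, 17.2% and 28.6% of U87 genes and 24.9%, 25.9% and 14.3% of U251 genes passed. By that rule 2 of 9 passed at D14 in U87 (4.14% of genes) and 8 of 9 in U251 (13.8%). All treated libraries lay above all Untreated libraries for 9 of 9 members at D3, D28 and D28WO in both lines, which 34.3%, 26.0% and 36.6% of U87 genes and 29.5%, 32.7% and 21.4% of U251 genes also did. At D14 this held for 4 members in U87 (29.5% of genes) and 8 in U251 (23.7%). The summed level of the 9 transcripts was 183 ± 6.52 TPM in Untreated U87 and went through 531 ± 9.93 TPM (D3), 209 ± 2.49 TPM (D14) and 581 ± 6.92 TPM (D28) to 552 ± 9.09 TPM (D28WO), as mean ± SD with n = 3, 2, 2, 3 and 3. In U251 the sums were 284 ± 15.2, 1158 ± 86.5, 975 ± 4.802, 1372 ± 57.1 and 1431 ± 102 TPM (n = 3 each). A bulk level cannot tell more cells with a transcript from more transcript per cell.

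**Figure D2:**
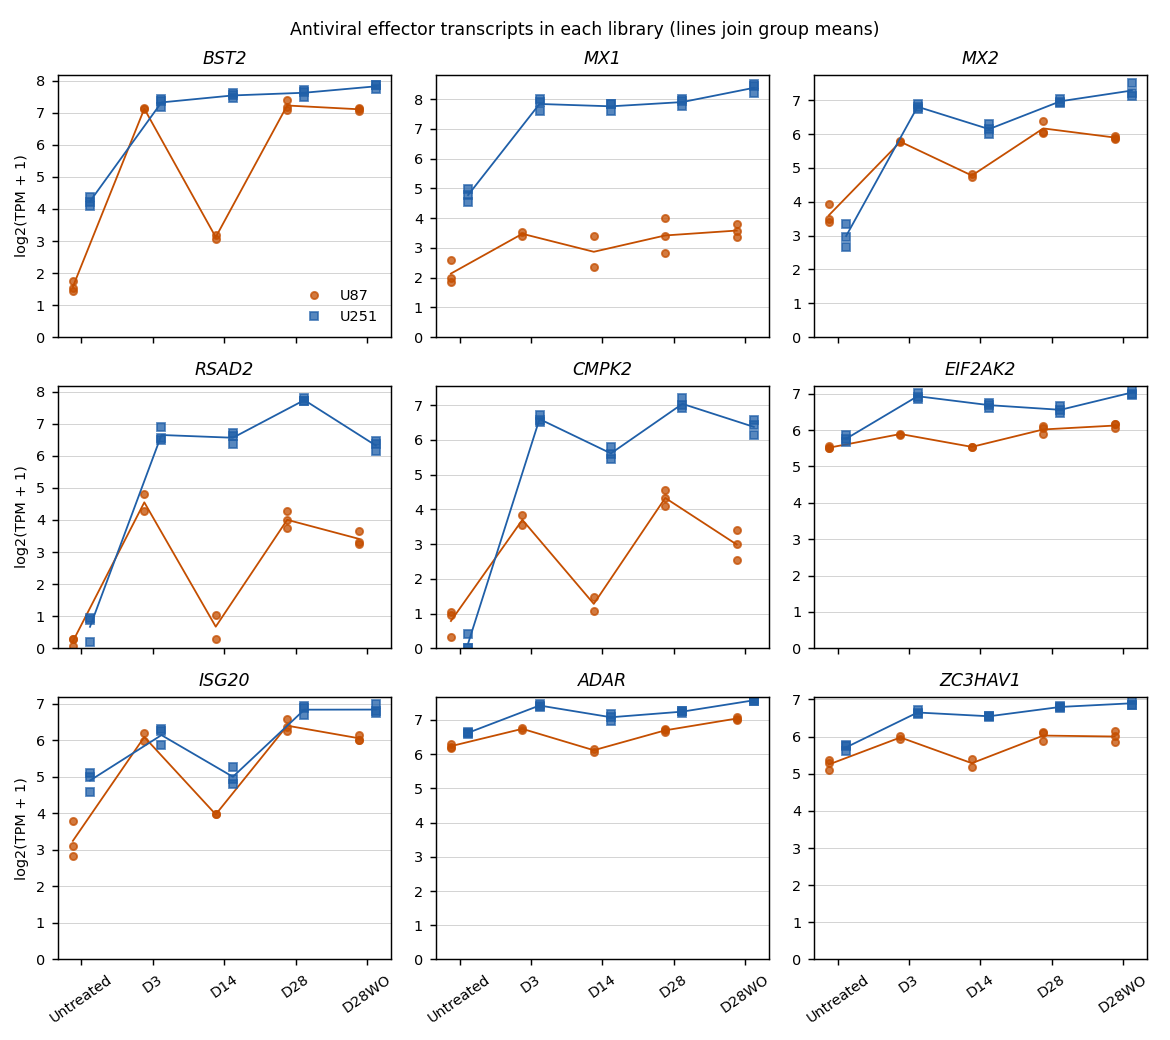
Level of each member in each library, as log2(TPM + 1) on the vertical axis and the 5 conditions on the horizontal axis, with circles for U87, squares for U251 and lines through the group means. In U87 BST2, RSAD2, CMPK2 and ISG20 drop at D14 and return at D28, while MX1 of U251 lies far above MX1 of U87 in every condition.

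BST2 (chr19:17402939-17405630, GRCh38), the tether of budding virions, went from near silence to the most abundant member at D3 and D28 in U87. Its 3 Untreated U87 libraries read 1.90, 1.70 and 2.35 TPM, and the 2 D3 libraries 137 and 141 TPM. The D14 libraries were at 8.09 and 7.32 TPM, far below D3 yet above all Untreated libraries. The D28 libraries were at 136, 144 and 169 TPM and the D28WO libraries at 138, 141 and 133 TPM, and these 2 groups overlapped. Against Untreated, the log2 fold changes in the order of the conditions were 5.56 ± 0.12 (SE), 1.55 ± 0.12, 5.66 ± 0.11 and 5.54 ± 0.11, with adjusted p of 2.74e-10, 0.000158, 6.05e-11 and 5.55e-11 in limma. The D3 rise ranked 2 among 22918 genes. BST2 fell by 4.01 on the log2 scale from D3 to D14 (adjusted p = 1.74e-08, limma), and D28WO differed from D28 by -0.12 (95% interval -0.35 to 0.12).

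In U251, BST2 began higher and did not dip. Untreated libraries held 16.2, 19.8 and 17.7 TPM, D3 libraries 144, 164 and 172 TPM, and D14 libraries 176, 188 and 194 TPM. D28 libraries read 181, 200 and 211 TPM and D28WO libraries 213, 234 and 233 TPM, which did not overlap. The log2 fold change from Untreated lay between 3.09 ± 0.09 at D3 and 3.59 ± 0.09 at D28WO, and each was called. D28WO exceeded D28 by 0.20 (95% interval 0.02 to 0.38, adjusted p = 0.0999, limma), which did not pass the test.

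The lncRNA BISPR starts 55 bases from BST2 on the opposite strand and was also called. From Untreated through D28WO, its U87 means were 1.23, 28.0, 3.92, 32.7 and 57.5 TPM, and its U251 means were 7.59, 41.9, 36.4, 37.5 and 37.7 TPM. At D28 BISPR was higher than Untreated by 3.96 ± 0.27 in U87 and 2.17 ± 0.19 in U251 on the log2 scale. MVB12A, which starts 91 bases from BST2 on that same strand and overlaps BISPR, differed by 0.42 ± 0.09 and 0.53 ± 0.12 at D28 and was not called in either line. The strand setting of the counting is not stated, so reads from overlapping transcripts on opposite strands cannot be told apart.

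MX1 (chr21:41420020-41470071) and MX2 (chr21:41361999-41409393) are neighbours on the plus strand, separated by 10626 bases, and their order of abundance was opposite in the lines. In U87, MX1 was the weak one. Its Untreated libraries read 2.97, 2.58 and 5.00 TPM, and the D3 libraries 9.68 and 10.6 TPM. D14 libraries gave 9.54 and 4.07 TPM and D28 libraries 15.3, 9.67 and 6.07 TPM. D28WO libraries gave 13.1, 10.8 and 9.43 TPM. MX1 had the largest SE of the 9 members in U87, and its D14 libraries overlapped with every other group except D3. The log2 fold change was 1.34 ± 0.38 at D3 (adjusted p = 0.0346), 1.28 ± 0.34 at D28 (adjusted p = 0.0195) and 1.45 ± 0.34 at D28WO (adjusted p = 0.00521) in limma. The D3 call was lost without either D3 library (adjusted p = 0.149 and 0.145) and without Untreated replicate 1 or 2 (adjusted p = 0.0796 and 0.0808), and the D28 call without D28 replicate 1 or 2 (adjusted p = 0.0789 and 0.0567) or Untreated replicate 1 or 2 (adjusted p = 0.0567 and 0.0604). Quantile normalization brought all 3 below the threshold, with log2 fold changes of 0.84, 0.79 and 0.87. The D3 call was also lost under median-ratio scaling (adjusted p = 0.0637), without the filter (0.066) and with only the 2 compared groups in the fit (0.0918), and the D28 call with only 2 groups (0.0899), all in limma.

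MX2 changed clearly in the same U87 libraries. Untreated libraries held 14.3, 9.50 and 10.2 TPM, D3 libraries 54.4 and 53.1 TPM, and D14 libraries 27.2 and 25.6 TPM. D28 libraries held 83.4, 65.7 and 65.1 TPM and D28WO libraries 60.7, 57.1 and 58.1 TPM. No treated library overlapped with Untreated, and the 4 log2 fold changes in the order of the conditions were 2.17 ± 0.16, 1.17 ± 0.16, 2.56 ± 0.14 and 2.29 ± 0.14. The D14 call was lost without D14 replicate 2 (adjusted p = 0.0525, limma) and under quantile normalization (log2 fold change 0.86). MX1 was 0.0933 to 0.489 times MX2 in the U87 libraries.

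In U251, MX1 exceeded MX2 in all 15 libraries, by 1.82 to 5.02 times. MX1 went from 26.5, 30.9 and 22.5 TPM in Untreated to 193, 257 and 240 TPM at D3 and 230, 228 and 193 TPM at D14. It stood at 220, 254 and 244 TPM at D28 and was highest after withdrawal, at 292, 361 and 351 TPM. D28WO did not overlap with D28, and the difference of 0.48 ± 0.13 (adjusted p = 0.0127, limma) passed the adjusted p but not the fold threshold. MX2 went from 5.28, 6.82 and 9.17 TPM to 106, 117 and 110 TPM at D3, eased to 77.4, 69.4 and 63.4 TPM at D14, and reached 119, 123 and 131 TPM at D28 and 138, 182 and 149 TPM at D28WO. MX2 therefore ended above D14 by 1.14 ± 0.15 on the log2 scale at D28WO (adjusted p = 5.79e-05, limma), a called change. MX1 and MX2 are similar in sequence, and how the counting treated shared reads is not stated.

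RSAD2 and CMPK2, the enzyme pair, had the largest fitted differences from Untreated on log2(TPM + 1) among the 9 members in U251, while BST2 had the largest in U87. RSAD2 was almost absent from Untreated U87 at 0.212, 0.236 and 0.0450 TPM. The D3 libraries held 27.3 and 18.4 TPM, and the D14 libraries only 0.234 and 1.06 TPM, which overlapped with Untreated. D28 libraries held 12.5, 15 and 18.2 TPM and D28WO libraries 9.0, 11.6 and 8.57 TPM. RSAD2 rose by 4.33 ± 0.29 at D3, 3.79 ± 0.26 at D28 and 3.20 ± 0.26 at D28WO on the log2 scale, and fell by 3.87 from D3 to D14 (adjusted p = 2.04e-05, limma). All 3 D28WO libraries lay below all 3 D28 libraries, but the difference of -0.59 (95% interval -1.15 to -0.03, adjusted p = 0.14, limma) was not called.

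CMPK2 in U87 was at 0.960, 1.07 and 0.263 TPM in Untreated, 10.7 and 13.4 TPM at D3, and 1.10 and 1.81 TPM at D14. It stood at 19.2, 22.6 and 16.1 TPM at D28 and at 7.07, 4.88 and 9.54 TPM at D28WO. CMPK2 was the only member called lower after withdrawal in U87, by -1.34 ± 0.28 (adjusted p = 0.00667, limma), where 2.42% of genes were called lower. It remained above Untreated by 2.20 ± 0.28, with no overlap.

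In U251 both enzymes went from near absence to the range of the abundant members. RSAD2 read 0.138, 0.824 and 0.940 TPM in Untreated, 89.8, 92.0 and 118 TPM at D3, and 96.3, 82.3 and 103 TPM at D14. It then climbed to 208, 208 and 222 TPM at D28. After withdrawal it was back at 69.3, 82.3 and 86.3 TPM, without overlap with D28. The called changes were 1.17 ± 0.17 from D14 to D28 (adjusted p = 0.000286) and -1.42 ± 0.17 from D28 to D28WO (adjusted p = 4.65e-05) in limma, and D28WO differed from D14 by -0.24 (95% interval -0.62 to 0.14). RSAD2 was the only U251 member called lower at D28WO than at D28, where 8.14% of genes were called lower.

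CMPK2 in U251 was listed at 0, 0.322 and 0 TPM in Untreated, so no fold is given against that group, and its fitted difference depends on the pseudocount. The D3 libraries held 90.9, 94.0 and 104 TPM and the D14 libraries 47.3, 42.4 and 54.7 TPM. The D28 libraries held 120, 126 and 146 TPM and the D28WO libraries 70.0, 93.3 and 84.3 TPM. No treated group overlapped with another among D3, D14 and D28. The D14 to D28 rise of 1.43 ± 0.14 was called (adjusted p = 7.31e-06, limma), and all 3 D28WO libraries lay below all 3 D28 libraries, with a fitted difference of -0.66 ± 0.14 (adjusted p = 0.00268, limma) that did not pass the fold threshold. RSAD2 was 0.979 to 1.14 times CMPK2 at D3 in U251, 1.89 to 2.03 times at D14, 1.52 to 1.73 times at D28 and 0.883 to 1.02 times at D28WO. Reads in the part where both gene bodies overlap cannot be assigned to a strand from what is stated.

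The lncRNA NRIR, which starts 105 bases past the end of CMPK2 on the same strand, was called in U251. From Untreated through D28WO its means were 0.139, 4.71, 4.19, 17.8 and 1.72 TPM. The D28 to D28WO change of -2.79 ± 0.22 (adjusted p = 9.14e-07, limma) was larger in size than that of RSAD2 or CMPK2 in the same libraries, though the 3 were not tested against each other. In U87, NRIR had a mean of 0.207 TPM in Untreated and 1.04 at D28 and was not called.

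ISG20 (chr15:88635670-88656483), the exonuclease, dipped at D14 in both lines. U87 libraries held 12.9, 6.11 and 7.64 TPM in Untreated, 72.7 and 61.7 TPM at D3, and 14.6 and 14.7 TPM at D14. They held 74.7, 81.8 and 94.5 TPM at D28 and 63.6, 63.1 and 69.8 TPM at D28WO. U251 libraries held 33.6, 30.6 and 23.2 TPM in Untreated, 57.3, 77.9 and 75.1 TPM at D3, and 37.2, 26.6 and 29.9 TPM at D14. D14 thus overlapped with Untreated in U251 but not with D3. U251 libraries then held 102, 122 and 117 TPM at D28 and 106, 125 and 110 TPM at D28WO. The D3 to D14 change was -2.12 ± 0.24 in U87 (adjusted p = 0.000304) and -1.14 ± 0.15 in U251 (adjusted p = 0.000121) in limma. From D14 to D28, ISG20 rose by 2.43 ± 0.22 and 1.84 ± 0.15. At D28WO it differed from D28 by -0.34 (95% interval -0.77 to 0.09) in U87 and by 0.00 (95% interval -0.33 to 0.34) in U251.

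The remaining 3 members, EIF2AK2, ADAR and ZC3HAV1, bind RNA directly and were already abundant in Untreated cells. EIF2AK2 (chr2:37099210-37157522), the kinase PKR, stood at 44.1, 46.0 and 44.1 TPM in Untreated U87, 57.8 and 58.9 TPM at D3, 45.4 and 45.5 TPM at D14, 68.1, 65.5 and 58.1 TPM at D28, and 70.3, 70.3 and 65.9 TPM at D28WO. D3, D28 and D28WO did not overlap with Untreated, yet their log2 fold changes of 0.38 ± 0.08, 0.50 ± 0.08 and 0.61 ± 0.08 stayed under the fold threshold. In U251 it stood at 53.0, 57.1 and 49.9 TPM in Untreated, 115, 130 and 118 TPM at D3, 97.1, 103 and 106 TPM at D14, 101, 87.1 and 92.1 TPM at D28, and 124, 126 and 140 TPM at D28WO. EIF2AK2 was called in U251 at D3 (1.17 ± 0.07) and D28WO (1.27 ± 0.07) but not at D14 (0.92 ± 0.07) or D28 (0.79 ± 0.07). The D28WO libraries lay above the D28 libraries without overlap, by 0.48 ± 0.07 (adjusted p = 0.000337, limma), short of the fold threshold. GPATCH11 overlaps the end of EIF2AK2 on the other strand and had means of 24.0 to 38.2 TPM in U87 and 24.4 to 33.1 TPM in U251.

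ADAR (chr1:154581695-154628013) was the most abundant member of Untreated cells in both lines. U87 libraries held 72.1, 76.9 and 73.6 TPM in Untreated, 109 and 103 TPM at D3, 66.3 and 70.3 TPM at D14, 99.1, 105 and 104 TPM at D28, and 131, 136 and 126 TPM at D28WO. U251 libraries held 99.2, 97.9 and 95.6 TPM, then 166, 168 and 177 TPM, 125, 144 and 135 TPM, 152, 146 and 153 TPM, and 188, 188 and 193 TPM. The highest group was D28WO in both lines, and it overlapped with no other group. ADAR exceeded D28 at D28WO by 0.34 ± 0.06 in U87 (adjusted p = 0.00292) and by 0.33 ± 0.05 in U251 (adjusted p = 0.000372) in limma. The D14 libraries of U87 lay below all Untreated libraries, as 9.94% of genes did, with a log2 fold change of -0.12 ± 0.07 (adjusted p = 0.331, limma). No ADAR change from Untreated reached the fold threshold, the nearest being 0.81 ± 0.06 and 0.95 ± 0.05 at D28WO. These levels sum all ADAR transcripts, so the interferon-inducible form was not separated from the constitutive one.

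ZC3HAV1 (chr7:139043515-139132122), the CpG-binding protein ZAP, was likewise already present in Untreated cells. U87 libraries held 40.2, 38.1 and 33.3 TPM in Untreated, 60.3 and 63.7 TPM at D3, 35.2 and 40.9 TPM at D14, 68.4, 66.9 and 57.9 TPM at D28, and 69.8, 56.7 and 63.4 TPM at D28WO. The D14 libraries overlapped with Untreated and the other treated groups did not. U251 libraries held 53.2, 52.7 and 48.3 TPM in Untreated and between 91.5 and 125 TPM in all treated groups. ZC3HAV1 was called in U251 at D28 (1.09 ± 0.06, adjusted p = 3.21e-09) and D28WO (1.19 ± 0.06, adjusted p = 2e-09) in limma, but median-ratio scaling put the D28 value at 0.97, under the fold threshold. In U87 the largest log2 fold change was 0.78 ± 0.11 at D28.

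**Figure D3:**
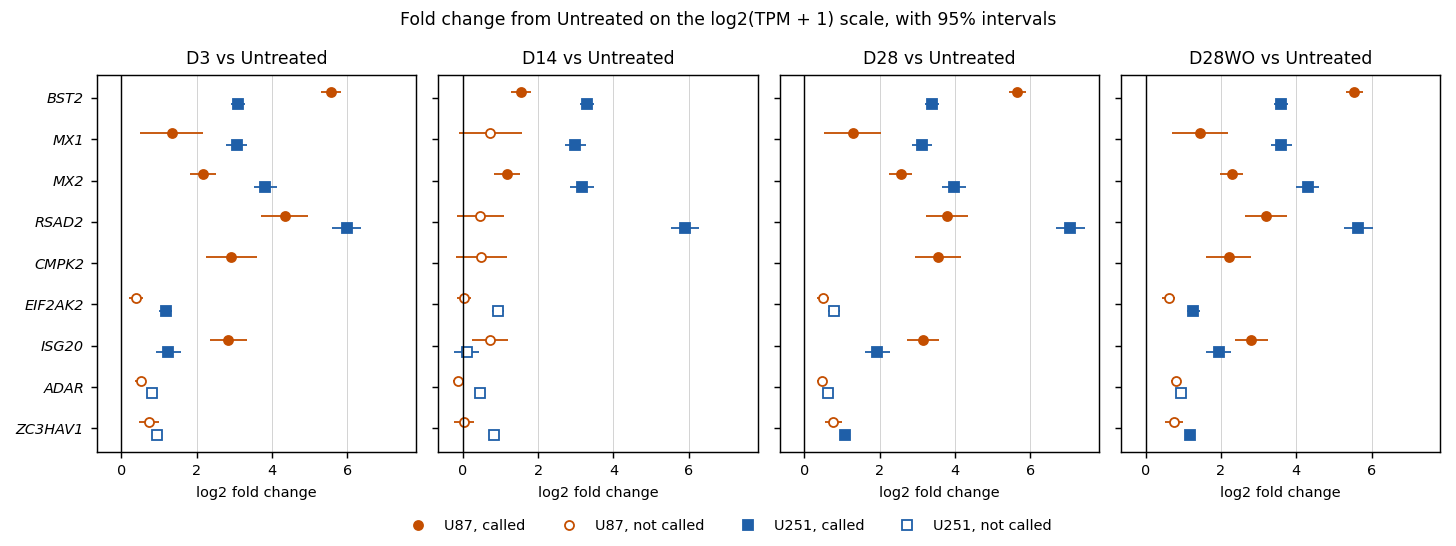
Log2 fold change of each member from Untreated on the log2(TPM + 1) scale (horizontal axis) at D3, D14, D28 and D28WO, with 95% intervals from limma; CMPK2 of U251 is left out because it was listed at 0 in 2 of 3 Untreated libraries. Filled symbols passed the adjusted p and the fold threshold; U87 values (circles) move left at D14, while U251 values (squares) other than ISG20 stay to the right.

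The passage of time under IFN-γ was then compared directly. From D3 to D14, 4 of 9 members were called lower in U87, BST2, RSAD2, CMPK2 and ISG20, where 2.05% of genes were called lower. With only those 2 groups in the fit none of the 4 was called (adjusted p = 0.075 to 0.109, limma), at the same fold changes. In U251 only ISG20 was called lower among the 9, where 3.29% of genes were. All 9 members were lower at D14 than at D3 without overlap in U87, a pattern shown by 25.7% of genes, and 6 of 9 in U251, against 19.4% of genes. From D14 to D28, 5 of 9 members were called higher in U87, the same 4 with MX2 (1.78% of genes). In U251 it was 3 of 9, RSAD2, CMPK2 and ISG20 (4.23% of genes). At an adjusted p alone, 7 members in U87 (3.32% of genes) and 5 in U251 (12.6%) were lower in the first step, and 8 (2.94%) and 6 (11.3%) were higher in the second. Since D14 enters both steps, the fall and the return in U87 share the same 2 libraries.

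After withdrawal of IFN-γ for the last 14 days, few members differed from D28 by more than the fold threshold. More of them did not overlap with D28, as given by direction below with the shares of all genes. At D28WO against D28, 1 of 9 members was called lower in each line, CMPK2 in U87 (2.42% of genes) and RSAD2 in U251 (8.14% of genes). No member was called higher, where 3.11% of U87 genes and 1.12% of U251 genes were. At an adjusted p alone, the members higher at D28WO than at D28 were ADAR in U87 (9.90% of genes) and MX1, EIF2AK2 and ADAR in U251 (10.3% of genes). Members lower by that rule numbered 1 in U87 (8.44% of genes) and 2 in U251 (18.8%). All D28WO libraries lay below all D28 libraries for CMPK2, RSAD2, ISG20 and MX2 in U87 (16.0% of genes) and above them for ADAR (20.4%). In U251 they lay below for RSAD2 and CMPK2 (28.3% of genes) and above for BST2, MX1, MX2, EIF2AK2, ADAR and ZC3HAV1 (16.1%). Against D14, the time at which IFN-γ was removed, 5 of 9 members were higher at D28WO in U87 (6.30% of genes), namely BST2, MX2, RSAD2, CMPK2 and ISG20. In U251 it was ISG20 and MX2, 2 of 9 (1.78% of genes). An adjusted p alone gave 8 members in each line (14.3% and 10.6% of genes).

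**Figure D4:**
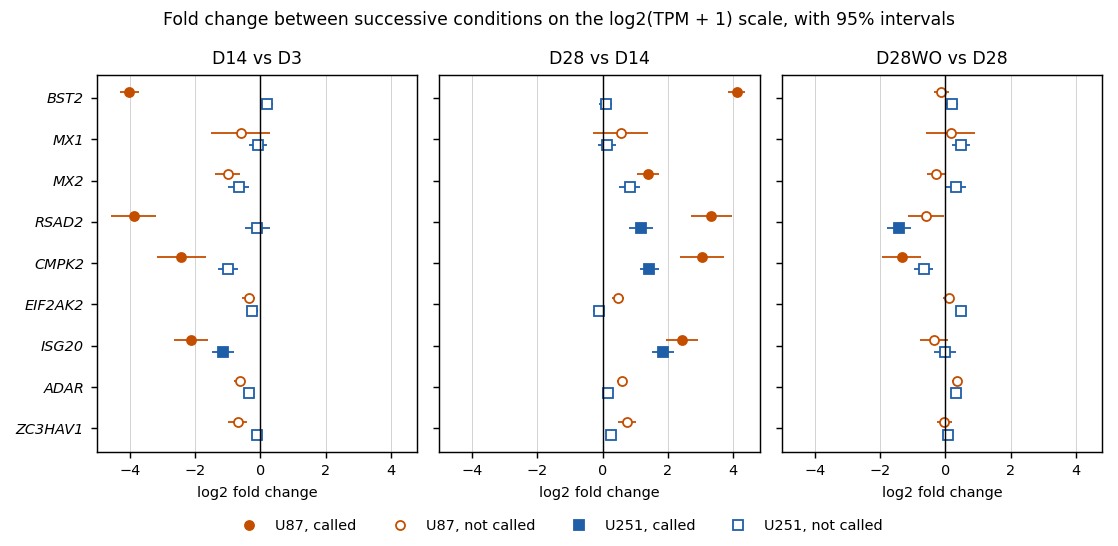
Log2 fold change of each member on the log2(TPM + 1) scale (horizontal axis) from D3 to D14, from D14 to D28 and from D28 to D28WO, with 95% intervals from limma and filled symbols for called changes. In the right panel only CMPK2 of U87 and RSAD2 of U251 are filled, both to the left of 0.

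The order of the members by level changed with treatment. In Untreated cells of both lines the order began with ADAR, EIF2AK2 and ZC3HAV1, and RSAD2 and CMPK2 were the last 2. EIF2AK2 and ZC3HAV1 overlapped in Untreated U251 but not in Untreated U87. At D28 in U87, BST2 led at 150 ± 16.8 TPM, followed by ADAR at 103 ± 3.06 TPM and ISG20 at 83.7 ± 10.1 TPM. ISG20 overlapped with MX2, and MX2 with ZC3HAV1 and EIF2AK2, so those neighbours did not differ beyond their spread. MX1 had the lowest mean at 10.3 ± 4.63 TPM and overlapped with RSAD2. At D28 in U251, MX1 (239 ± 17.6 TPM) overlapped with RSAD2 (212 ± 8.04 TPM) and RSAD2 with BST2 (197 ± 14.9 TPM). EIF2AK2, the runner-up before treatment, was last there at 93.3 ± 6.91 TPM.

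Across the libraries of a line, the 9 members mostly varied together. Pearson's r on log2(TPM + 1) ranged from 0.672 to 0.984 over the 36 pairs in 13 U87 libraries, with a median of 0.900. In 15 U251 libraries it ranged from 0.614 to 0.991, with a median of 0.924. These values describe libraries that share treatment groups and carry no test. MX1 was the member least like the rest in U87, with its lowest r of 0.672 to ADAR. ISG20 was the one in U251, with its lowest r of 0.614 to EIF2AK2.

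**Figure D5:**
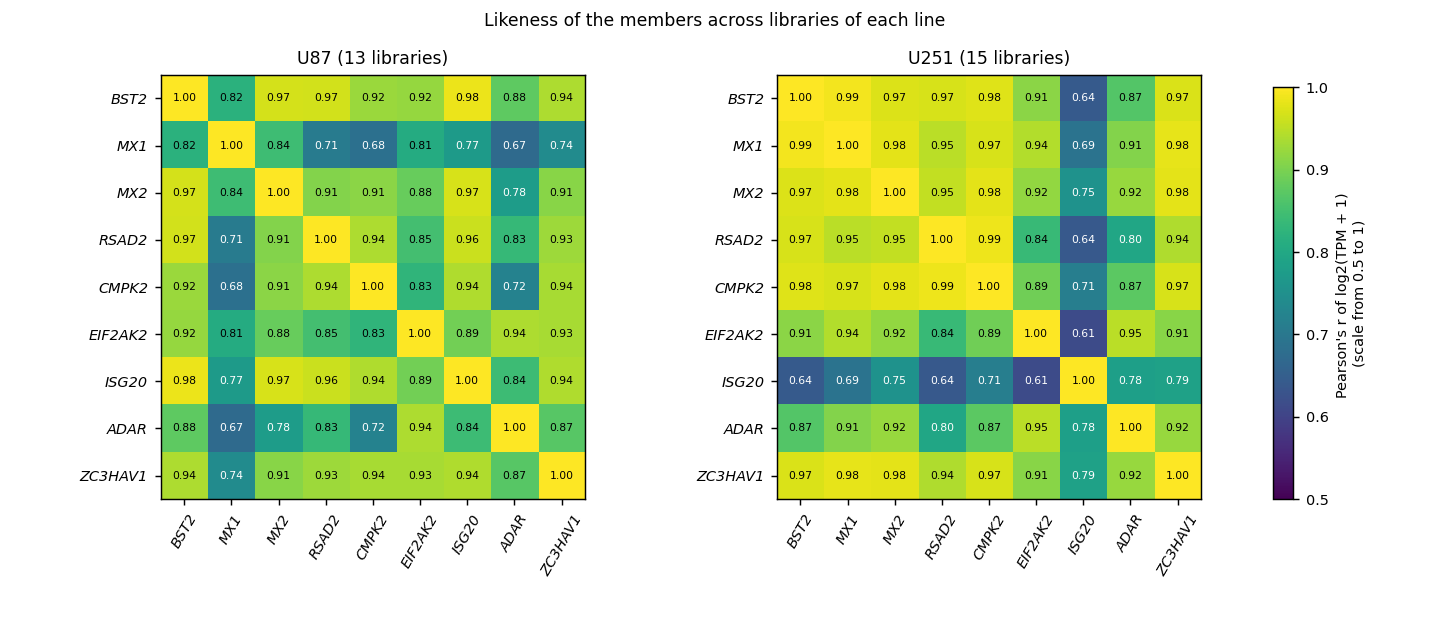
Pearson's r between members over the 13 libraries of U87 (left) and the 15 of U251 (right), colored from 0.5 to 1, with members on both axes. The darker MX1 row of U87 and the darker ISG20 row of U251 mark the members least like the others.

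The 3 genes most like each member differed between the lines. For BST2 they were HLA-DQA1 (r = 0.994), IFIH1 (0.992) and APOL6 (0.992) in U87, and OAS3 (0.996), OAS1 (0.994) and IFI44 (0.993) in U251. For MX1 they were ENSG00000247853 (0.952), TMEM88 (0.930) and FAM209B (0.917) in U87, and IFI44 (0.994), IFIT1 (0.992) and IFI44L (0.992) in U251. For MX2 they were C3 (0.985), JUN-DT (0.985) and CD40 (0.977) in U87, and RIGI (0.994), IFIH1 (0.990) and SAMD9 (0.990) in U251. RSAD2 came closest to CSF1 (0.981), MAPK8IP2 (0.979) and IL7 (0.976) in U87, and to SLC12A7 (0.993), LGALS9 (0.991) and CMPK2 (0.987) in U251. CMPK2 came closest to NUGGC (0.990), TNFSF10 (0.989) and FMO5 (0.978) in U87, and to HLA-DPA1 (0.996), XAF1 (0.993) and IGFBP4 (0.992) in U251.

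For the other 4 members the closest genes also differed between the lines. EIF2AK2 was most like CEACAM1 (0.980), CCL8 (0.979) and WARS1 (0.973) in U87, and ZNF618 (0.976), FMR1 (0.966) and SAMHD1 (0.961) in U251. ISG20 was most like EPSTI1 (0.993), HAPLN3 (0.992) and SLC15A3 (0.991) in U87, and ENSG00000287263 (0.980), C4B (0.977) and VCAM1 (0.975) in U251. ADAR was most like PMAIP1 (0.990), GSAP (0.983) and ELOVL7 (0.982) in U87, and SLC7A5 (0.984), DTX3L (0.982) and PSMB9 (0.980) in U251. ZC3HAV1 was most like P2RY1 (0.984), RBM47 (0.981) and RHBDF2 (0.975) in U87, and ISG15 (0.992), IFITM1 (0.992) and SLC15A3 (0.990) in U251.

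Many further antiviral effectors were also higher, but fewer in the U87 D14 libraries. There 3 of 26 were called higher (1.89% of genes), and 7 of 26 were higher by adjusted p alone (4.14% of genes). The median log2 fold change there was 0.10 against 0.15 over all genes. Of the 26, 13 were called higher at D28 in U87 (6.77% of genes), with OAS2 (4.28 ± 0.12), XAF1 (4.03 ± 0.27), IFITM1 (4.01 ± 0.29) and OAS1 (2.57 ± 0.19) at the top. In U251 it was 21 of 26 (11.9% of genes), led by OAS2 (5.52 ± 0.12), OASL (5.47 ± 0.13), XAF1 (4.92 ± 0.17) and OAS1 (4.22 ± 0.07). OAS1 and OAS2 make the second messenger that activates RNase L, OASL is their catalytically inactive relative, and IFITM1 hinders membrane fusion. At D28WO 10 of 26 were called higher than Untreated in U87 (12.8% of genes) and 22 of 26 in U251 (4.07%). The median log2 fold change of this list at D28 was 0.96 in U87 and 2.12 in U251.

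Genes upstream of the members were called in part. Of 12 genes of interferon signalling, 6 were called higher at D28 in U87 (6.77% of genes), among them IRF1 (1.84 ± 0.09), IRF7 (1.29 ± 0.19) and STAT2 (1.28 ± 0.07). In U251, 5 were called (11.9% of genes), among them JAK2 (2.46 ± 0.19), IRF1 (2.08 ± 0.11) and IRF9 (1.56 ± 0.07). By adjusted p alone 1 of the 12 was lower in U87 and 3 in U251 (6.55% and 14.7% of genes). Of 7 tested sensors and cofactors of double-stranded RNA, TLR3 (2.54 ± 0.11), DHX58 (2.29 ± 0.24) and IFIH1 (2.14 ± 0.11) were called higher in U87 (6.77% of genes). In U251 (11.9% of genes), TLR3 (2.66 ± 0.14), RIGI (2.50 ± 0.07), IFIH1 (2.30 ± 0.05) and DHX58 (1.74 ± 0.12) were.

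Relatives of the members by protein family were called higher at D28 at no more than the share of all genes (6.77% in U87 and 11.9% in U251). Of 16 tested in U87 and 15 in U251, PARP12, a CCCH zinc-finger relative of ZC3HAV1, was the only one called higher at D28, by 1.54 ± 0.11 and 1.92 ± 0.09. DNM3, a dynamin like the MX proteins, was the only one of the 15 called lower in U251 (-1.81 ± 0.20), where 3.35% of genes were, and 6 of 15 were lower by adjusted p alone (14.7% of genes). None of 11 partners and targets of PKR and ZAP, such as the translation factor subunit EIF2S1 and the ZAP cofactor TRIM25, was called at D28 in either line, although by adjusted p alone 3 in U87 and 5 in U251 were higher (17.2% and 25.9% of genes) and 2 in each line lower (6.55% and 14.7% of genes). Within 50 kb of the members, FAM3B next to MX2 was called higher in U87 (1.31 ± 0.25). The called neighbours are named here without a tally of all those tested, while 6.77% of all U87 genes and 11.9% of all U251 genes were called higher at D28. In U251, CCDC194 near BST2 was called higher (3.65 ± 0.36), as was PLVAP, which was listed at 0 in all Untreated libraries and had a mean of 5.29 TPM at D28. GRASLND (1.34) was called in U251, ENSG00000269053 in U87, which was listed at 0 in all Untreated libraries, and ENSG00000287064 in both (1.41 in U87 and 3.13 in U251).

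Transcripts of interferon genes themselves are given beside the member values. Of 26 interferon genes and pseudogenes in the U87 table, 20 were at 0 in every library and none passed the expression filter. IFNB1 was at 0 in all 13 U87 libraries. Of the same 26 in U251, 12 were at 0 in every library, and IFNA20P reached 7.41 TPM. In U251, IFNB1 was at 0 in the 3 Untreated libraries, 1.09 to 2.21 TPM at D3, 3.24 to 3.81 TPM at D14, 6.26 to 8.59 TPM at D28 and 0.927 to 2.05 TPM at D28WO. IFNL1 was at 0 in Untreated, 1.91 to 3.53 TPM at D28 and at most 1.05 TPM at D28WO. Both were called higher at D28, as 2 of 3 tested (11.9% of genes). Both were called lower at D28WO than at D28 (8.14% of genes), by -1.71 ± 0.24 (adjusted p = 0.000126) and -1.46 ± 0.40 (adjusted p = 0.0136) in limma. RSAD2 and CMPK2 of U251 were also lower at D28WO than at D28, whereas BST2, MX1, MX2, EIF2AK2, ADAR and ZC3HAV1 lay above D28. From D3 to D14, IFNB1 was higher while the CMPK2 mean went from 96.1 to 48.1 TPM, and the part of these interferons in the members' levels was not tested.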

How the data were processed

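Bulk RNA-seq of U87-MG and U251-MG was deposited as 1 table per line, in TPM (transcript abundance scaled for gene length and library size) made by the authors. The submitters' processing notes name FastQC, Trim Galore, STAR, featureCounts, edgeR and GRCh38, without versions or a strand setting. Neither counts nor depth were used, so precision rests on the spread between libraries. Here log2(TPM + 1) was fitted with limma 3.58.1 (R 4.3.3) and an intensity trend, separately per line, with all 5 groups in 1 model, keeping genes whose mean reached 0.5 TPM. P-values were adjusted by Benjamini-Hochberg over all genes of a comparison. Fold changes on this scale understate those of low genes. A total of 2 U87 columns with the same name were left out. Gene positions came from GENCODE on GRCh38 and promoter windows from RefSeq on GRCh38.p14. The script was tested on simulated data. Same-numbered libraries of a line did not deviate together (r from -0.058 to 0.048), so the fit had no block. The named genes were the 9 members, the 3 genes closest to each by Pearson's r, up to 4 called genes with the largest D28 change in each other list (1 of them is not reported here), and neighbours within 50 kb. Members and lists were chosen with earlier results of these data known. Alternatives changed the pseudocount, filter, scaling, weights, block, samples in the fit and call rule, and left out each library in turn.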

Additional observations from a re-analysis of the deposited data

Results flagged for a closer look

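In 3 cases the libraries of U87 and those of U251 lay apart without overlap in opposite directions under the same contrast, and the difference between the lines was not tested. For BST2, the D14 libraries lay below the D3 libraries in U87 (-4.01 on the log2 scale, adjusted p = 1.74e-08, limma) and above them in U251 (0.22, adjusted p = 0.0807, limma), where the test was not passed. For ADAR, the D14 libraries lay below Untreated in U87 (-0.12, adjusted p = 0.331, limma, not passed) and above it in U251 (0.45, adjusted p = 4.18e-05, limma, under the fold threshold). For MX2, the D28WO libraries lay below the D28 libraries in U87 (-0.27, adjusted p = 0.215, limma) and above them in U251 (0.32, adjusted p = 0.122, limma), and neither passed. Of the 20473 genes tested in both lines, 6.58% lay apart in opposite directions from D3 to D14, 6.41% at D14 against Untreated and 8.85% at D28WO against D28, against 1 of 9 members in each. The 2 U87 D14 libraries enter the first 2 of these cases. No group had more than 3 libraries, so none was checked for outlying samples.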

How the results depend on the processing

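Under all alternatives together, 450 recomputed counts of called members equalled their main value or stayed within 1.5 times of it, and 18 did not. The 450 include counts that were 0 in the main fit and stayed 0, for which a ratio has no meaning. With the adjusted p as the only criterion, members higher numbered 8 in U251 at D14, 8 (U87) and 6 (U251) from D14 to D28, 1 and 3 from D28 to D28WO, and 8 and 8 from D14 to D28WO, and members lower numbered 7 and 5 from D3 to D14 and 2 in U251 from D28 to D28WO. With only the compared groups in the fit, the U87 counts of members higher at D14 and of members lower from D3 to D14 both became 0, since 2 or 3 libraries a group carry the spread alone. Quantile normalization gave 1 member higher in U87 at D14 and 2 lower in U251 from D3 to D14. Leaving out a library gave 1 to 2 members higher in U87 at D14 (1 without D14 replicate 2) and 1 to 2 lower in U251 from D3 to D14 (2, with CMPK2, without D3 replicate 1, D3 replicate 2 or D14 replicate 3).

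Values near 0 changed sign, and none of them was called. At D14 against Untreated in U87, EIF2AK2 became -0.13 (quantile) and -0.15 (median-ratio), and ZC3HAV1 -0.16, -0.14 and -0.0038 (array weights), and -0.043 without Untreated replicate 3 and -0.071 without D14 replicate 3 (leave-one-out up to 0.14). In U251, ISG20 there became -0.011 (quantile), -0.049 and -0.028 (leave-one-out, up to 0.21). From D28 to D28WO in U87, ZC3HAV1 became 0.019, 0.0037 and 0.051 (range from -0.10), and MX1 -0.14 (up to 0.47), by leaving out a library. In U251, ISG20 there became -0.033 (quantile), -0.012 (array weights), -0.075 and -0.068 (leave-one-out, up to 0.055). From D3 to D14 in U251, leave-one-out gave MX1 0.0042 and 0.0034 (range from -0.20), and RSAD2 0.040 and 0.0048.

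Quantile scaling moved the median of all U87 genes at D3 from 0.20 to -0.02 and the members' median from 2.17 to 1.82, and the members' median at D14 from 0.49 to 0.19 (0.28 to 0.70 leaving out a D14 library). The replicate numbers did not pair the libraries, and with the replicate block the U87 count at D3 stayed at 6 and no member gained or lost a call in any comparison. TPM carry no depth, so low values such as RSAD2 in Untreated cells have no counting error attached.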
